A study of Mus musculus with 12 samples.

Results

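The cytosolic ribosomal proteins were followed in the liver of Balb/c mice (wild type, 6 weeks of age), in 6 control libraries (control 3 to 8) and 6 libraries from severe acute pancreatitis (SAP 10 to 15), whose treatment the labels give as caerulein. Caerulein is a cholecystokinin analogue that overstimulates the exocrine pancreas and is widely used to provoke pancreatitis in mice. The dose, the time of sampling and the treatment of the controls are not given in the labels used here, and the design text refers to 2 models in mice where the labels record 1 strain and 1 treatment. RNA came from frozen liver. A total of 82 rows of the 55487 in the expression table carried a symbol that names a cytosolic ribosomal protein (Rpl or Rps with a number and an optional a, l or x, and Rplp0 to Rplp2), 51 of the large and 31 of the small subunit. The names of pseudogenes do not match that pattern, but GENCODE M21 lists 79 of the 82 as protein-coding, Rps4l as a transcribed processed pseudogene, and Rpl6l and Rpl32l as processed pseudogenes. The pattern misses 7 cytosolic ribosomal protein genes with other names, among them Rpsa and Rps3a1, which are given separately.

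Each cytosolic ribosome joins a small subunit, which holds the mRNA and reads its codons, to a large subunit, which forms the peptide bond and feeds the growing chain into an exit tunnel. Their proteins are made in nearly equal numbers, assembled on ribosomal RNA in the nucleolus, and coded by short, abundant mRNAs. Most of these mRNAs begin with a run of pyrimidines, the terminal oligopyrimidine (TOP) tract, through which the growth regulator mTORC1 sets their translation and stability. Liver devotes a large share of its translation to plasma proteins, and its output of acute-phase proteins rises in systemic inflammation.

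Levels are given in TPM, a share of all transcripts in a library corrected for transcript length, so that genes can be compared with each other. A change is the difference of mean log2(TPM + 1), SAP minus control. A gene is said to have risen or fallen when its adjusted p in the limma fit over 11344 genes was under 0.05 (Benjamini-Hochberg). The low-value filter of at least 1 TPM in at least 6 libraries passed 77 of the 82 members, 46 large and 31 small. The other 5 were Rpl10l and Rpl6l, at 0 in all 12 libraries, and Rpl3l, Rpl39l and Rpl32l, whose highest values were 0.46, 0.17 and 0.67 TPM. Whether each library is a separate mouse is not stated, and the p-values then reflect only how these samples vary, which may be technical.

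Cytosolic ribosomal protein mRNAs took a larger part of the measured liver mRNA in SAP. Summed over the members, they made up 3.07 to 3.83% of all TPM in the control libraries (median 3.375%) and 3.90 to 4.76% in the SAP libraries (median 4.275%). The groups did not overlap. Of 46 large subunit members tested, 33 rose, 0 fell and 13 did not pass the threshold. Of 31 small subunit members, 27 rose, Rps2 fell and 3 did not pass. Over all 11344 genes, 19.5% rose and 25% fell. The changes were small. The median log2 change was 0.28 over the large subunit members (range -0.12 to 0.77) and 0.33 over the small (range -0.61 to 0.70), beside -0.03 over all genes tested, and 0 members reached a log2 change of 1. A positive change was found in 73 of 77 members, and 48 of them lay between 0.2 and 0.5. For 32 members, 15 large and 17 small, every SAP library was above every control library, as was the case for 10.5% of all genes.

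**Figure D1:**
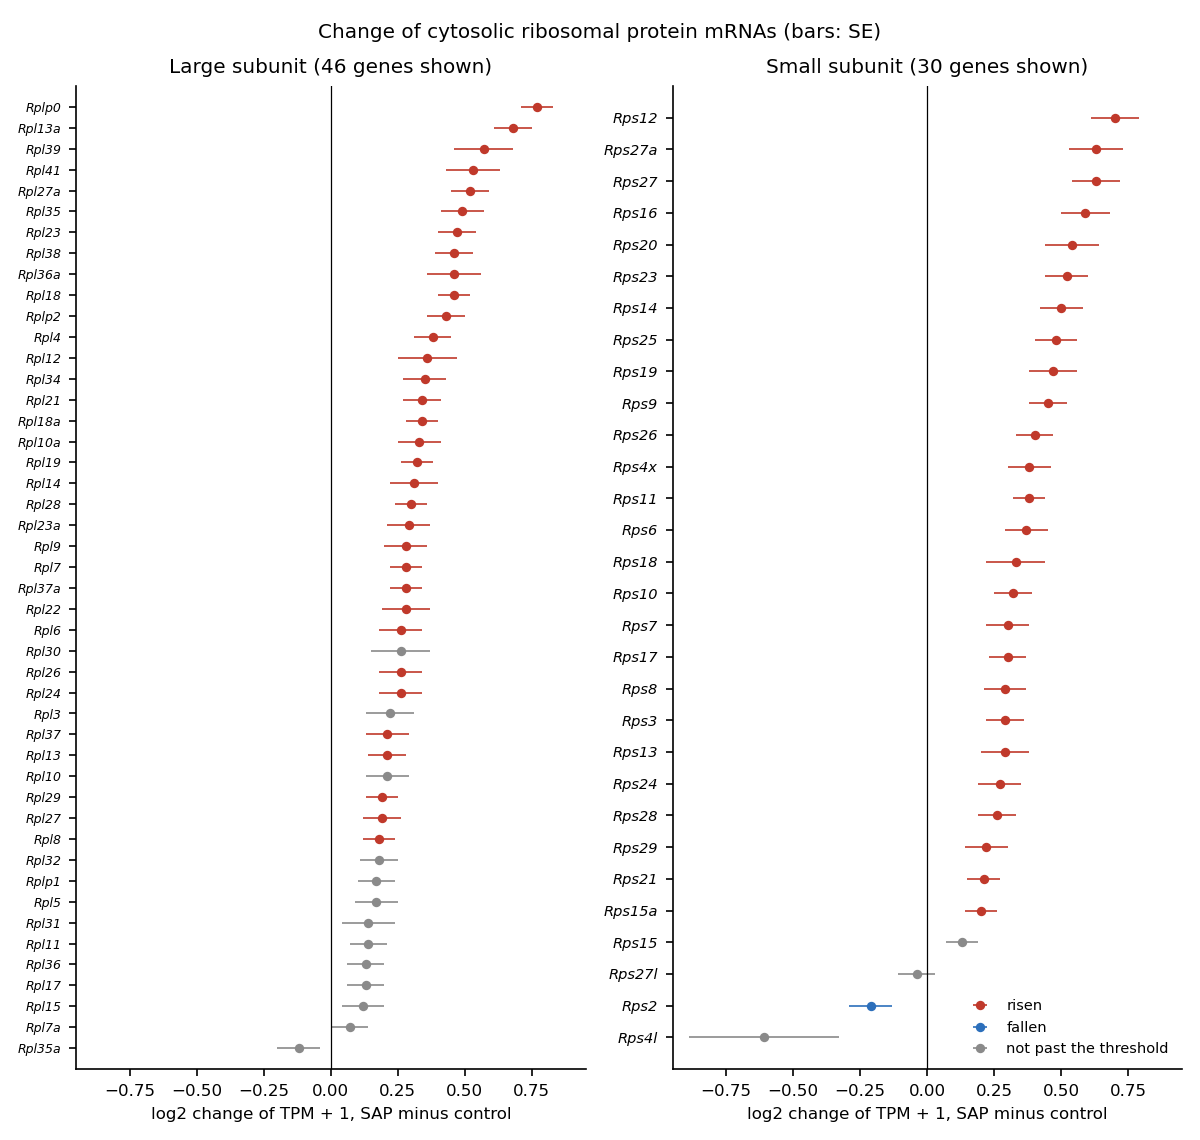
Log2 change of TPM + 1 (horizontal axis, SAP minus control, bars showing the SE from the limma fit) for each tested member of the large (left, 46 genes) and the small subunit (right, 30 of the 31 tested genes), sorted by size. Red marks members past the threshold and higher in SAP, blue past it and lower, grey not past it; 59 are red, 1 is blue and 16 are grey, with Rplp0 at 0.77 and Rps12 at 0.70 leading the subunits.

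The scale of these values depends on the acute-phase genes. A list of 29 acute-phase genes took 3.55 to 4.13% of TPM in control and 22.8 to 37.2% in SAP libraries, so that all other genes share a smaller remainder in SAP. Outside that list the members made up 3.19 to 3.98% of TPM in controls and 5.05 to 7.57% in SAP. With the list left out of the total, the median change of all genes was 0.33, that of the large subunit members 0.70 and that of the small 0.74, and 75 of 77 members rose and 0 fell, while 55.6% of all genes rose and 10.2% fell. With TMM-like scaling 57 members rose and 0 fell (24% and 24.1% of all genes), and with quantile normalization 74 rose and 0 fell (26.2% and 22.7%). The members thus stood 0.31 (large) and 0.36 (small) above the median of all genes as deposited, 0.37 and 0.41 above it after that rescaling, and 0.52 and 0.56 above it with quantile normalization. Rises of members are thus relative to the sum of measured mRNA, and the falls named below move with the scale.

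Libraries also differed in another way that cut through both groups. Xist, the RNA that coats the silenced X chromosome, was under 30 TPM in control 5 and SAP 11, 13, 14 and 15, and above it in the 5 other controls and SAP 10 and 12, and the nuclear RNA Malat1 went the same way. With this split as a term beside the group, 75 of 77 members had a positive value for the low-Xist libraries, with a median of 0.15, and 1 (Rpl22) passed the threshold. Across all genes, 0.0882% passed it higher and 2.72% lower. The effect of SAP in that fit had a median of 0.20 over the large and 0.30 over the small subunit members, and 41 members rose and 2 fell (Rps2 and Rps4l), where 20.5% of all genes rose and 19.4% fell. Within the high-Xist libraries alone (5 control, 2 SAP), 36 members rose and 1 fell, while 18% of all genes rose and 16.1% fell, the median change was 0.24 for the large and 0.32 for the small subunit members, and in 53 of 77 members both SAP values were above all 5 control values, as was the case for 27.3% of all genes. Since 4 of the 5 low-Xist libraries are SAP, the split and the groups overlap in part.

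The set was summarised in each library by the median deviation of the 77 members from their own 12-library means. In controls it ran from -0.30 (control 6) to 0.01 (control 5), and in SAP from 0.03 (SAP 12) to 0.29 (SAP 14). The highest control, control 5, is the low-Xist control, and the lowest SAP library, SAP 12, is a high-Xist one. Between these neighbours the gap was 0.02, less than the spread within either group (SD 0.112 in controls and 0.0898 in SAP, n = 6 each).

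**Figure D2:**
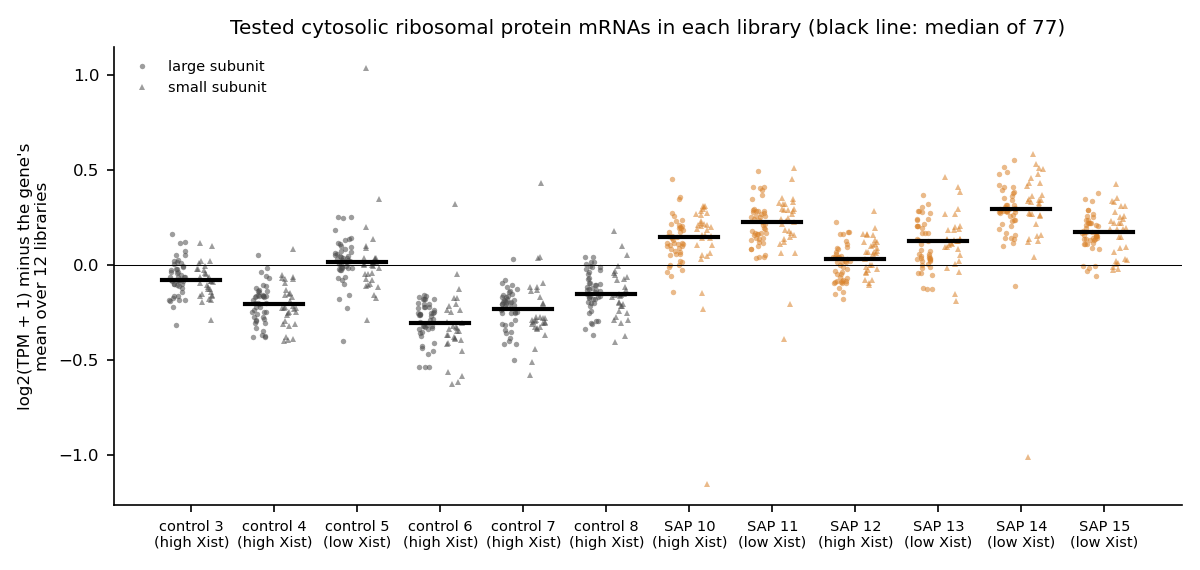
Each tested member in each of the 12 libraries (horizontal axis) as its log2(TPM + 1) minus its own mean over the libraries (vertical axis); circles are large and triangles small subunit members, grey for control and orange for SAP, and the black line is the median of the 77. The medians of the 6 controls lie between -0.30 and 0.01 and those of the 6 SAP libraries between 0.03 and 0.29.

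The balance of the subunits also differed between the groups. Summed TPM of large over small subunit members was 1.329 to 1.364 in controls and 1.272 to 1.315 in SAP, so the ratio was lower in every SAP library than in every control. No test is given for this ratio, which sums over the members.

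Rplp0, the base of the acidic stalk that recruits elongation factors to the large subunit, changed more than any other tested member. It was at 274.72, 304.8 and 341.27 TPM (lowest, median and highest) in controls and at 466.79, 524.1 and 555.06 TPM in SAP. The groups were far apart, with a ratio of medians of 1.72 and a difference of 0.77 ± 0.06 on the log2 scale (SE; adjusted p in limma, 8.13e-07). In GENCODE M21 on GRCm38 the gene lies on chromosome 5, from 115559467 to 115563727 on the plus strand. Of its partners in the stalk, Rplp2 went from 254.40, 280.8 and 305.54 TPM to 352.46, 372.4 and 434.73 TPM, again without overlap (log2 change 0.43, adjusted p = 1.91e-04). Rplp1, an mRNA at a higher level than either, was at 1231.92, 1331 and 1442.23 TPM in controls and 1335.20, 1481 and 1721.57 TPM in SAP, and its change of 0.17 did not pass (adjusted p = 0.0684). The 2 acidic proteins sit on the stalk as pairs; whether the changes of their mRNAs differed was not tested. Rpl12, at the foot of the stalk, rose by 0.36 on its own row, from a median of 6.785 to 9.08 TPM, and most of the joint TPM was on the row of a near-identical copy, as described below.

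Rpl13a, a protein on the outer face of the large subunit also known as a part of the interferon-activated GAIT complex that silences inflammatory mRNAs, had the next largest change among the large subunit members. Its values were 868.44, 1004 and 1129.90 TPM in controls and 1410.77, 1610 and 1803.24 TPM in SAP. No SAP library fell within the control range, and the change was 0.68 ± 0.07 (SE; limma, adjusted p = 8.58e-06). The gene lies on chromosome 7 from 45125558 to 45128761 on the minus strand (GRCm38). Within the large subunit Rpl39 (log2 change 0.57), Rpl41 (0.53) and Rpl27a (0.52) followed. Rpl39, a very small protein in the wall of the exit tunnel, was at 150.30, 170.6 and 240.61 TPM in controls and 232.35, 258.3 and 308.20 TPM in SAP. Rpl41, the shortest ribosomal protein, was at 956.36, 1028 and 1297.43 and then at 1287.03, 1517 and 1862.49 TPM. Both of these overlapped slightly between the groups. Rpl27a was at 93.30, 105.8 and 126.64 TPM in controls and 138.22, 155.7 and 169.86 TPM in SAP, without overlap.

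Of 4 members around the catalytic centre 2 rose on their own rows, and of the 2 that carry 5S RNA 0 rose. Over the large subunit members tested 71.7% rose, and over all genes 19.5%. Groups of this size cannot show a difference between roles, and none was tested. Rpl4 and Rpl8 rose (0.38 and 0.18), whereas Rpl3, which reaches into the peptidyl transferase centre, had 113.75, 119.5 and 153.39 TPM in controls and 126.64, 143.2 and 173.90 TPM in SAP (log2 change 0.22, adjusted p = 0.0752). Rpl10, which finishes large subunit maturation, was at 275.90, 332 and 358.08 TPM and then at 330.62, 361.9 and 418.56 TPM (0.21, adjusted p = 0.0581). Rpl5 and Rpl11 carry 5S RNA and, when free of ribosomes, bind the p53 inhibitor Mdm2. Rpl11 was at 471.19, 531.2 and 606.45 TPM and then at 537.71, 590.4 and 649.13 TPM, a change of 0.14 (adjusted p = 0.146). Rpl5 was at 18.16, 20.52 and 23.21 TPM and then at 19.55, 23.66 and 25.71 TPM, a change of 0.17 (adjusted p = 0.102). For Rpl3, Rpl10 and Rpl5 most of the joint TPM was on rows of near-identical copies, with which all 3 passed, as described below. Along the rim of the exit tunnel, 6 of 8 members rose (75%), near the share of the whole large subunit. Rpl39 and Rpl35 (0.49) were foremost, with Rpl17 (0.13) and Rpl31 (0.14) not past.

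Among the large subunit members with the smallest changes, Rpl7a was at 627.69, 715.8 and 785.21 TPM in controls and 684.68, 734.7 and 804.04 TPM in SAP (0.07). Rpl35a, whose human counterpart is mutated in some patients with Diamond-Blackfan anaemia, was at 351.75, 412 and 475.08 TPM in controls and 352.08, 367.4 and 434.42 TPM in SAP (-0.12, adjusted p = 0.255; 0.17 with quantile normalization and 0.30 without the acute-phase list). Rpl15 was at 217.19, 235.1 and 258.26 TPM and then at 225.65, 256.1 and 288.44 TPM (0.12). Rpl17, at the exit tunnel, was at 389.99, 421.6 and 490.55 TPM and then at 418.74, 474.3 and 500.60 TPM (0.13). Rpl36 was at 882.18, 954.1 and 1002.57 TPM and then at 907.00, 1034 and 1186.90 TPM (0.13). In each of these 3 the groups overlapped and the change did not pass. Rplp1, Rpl13a and Rpl41 were the most abundant large subunit rows, and Rplp1 did not pass while the other 2 were among the largest increases. Across the 76 protein-coding members tested, the log2 change and the log2 of the mean level had a Pearson r of 0.09, and the change and the mRNA length one of 0.03. For the change and the number of matched copies r was -0.35 (Spearman's rho -0.30). These are given as a description over genes that share the same libraries.

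On the small subunit, Rps12 and Rps27 led. Rps12, a protein of the beak of the small subunit, was at 430.38, 489.9 and 567.62 TPM in controls and 726.47, 780.3 and 952.34 TPM in SAP (0.70 ± 0.09 SE; limma, adjusted p = 2.66e-05). All SAP libraries were above all controls. Rps27, a zinc-finger protein, had the highest median TPM over the 12 libraries of any member's own row, although Rplp1 was higher in the controls. It was at 947.53, 1161 and 1270.10 TPM in controls and 1552.23, 1771 and 2022.79 TPM in SAP (0.63 ± 0.09 SE, adjusted p = 6.57e-05). Again the groups did not overlap. Rps12 lies on chromosome 10 from 23785183 to 23787275 and Rps27 on chromosome 3 from 90212522 to 90213651, both on the minus strand (GRCm38).

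Rps27a, which is made as a fusion with ubiquitin, rose by 0.63 (179.22, 215.3 and 279.56 TPM to 295.28, 349 and 393.51 TPM). Rps16 rose by 0.59 (280.51, 350.6 and 389.18 TPM to 469.00, 504.9 and 575.29 TPM) and Rps20 by 0.54 (54.31, 73.41 and 81.08 TPM to 93.32, 102.2 and 111.79 TPM), each without overlap. Near the mRNA exit, Rps14 rose by 0.50, Rps26 by 0.40 and Rps28 by 0.26. In each of these 3 the SAP values were above the control values. Near the mRNA entry, Rps23 (0.52) and Rps3 (0.29) rose and Rps2 fell. Rps15 was at 926.51, 996.9 and 1068.60 TPM in controls and 1016.42, 1079 and 1193.71 TPM in SAP and did not pass (0.13, adjusted p = 0.110). Rps29, with Rps27 and Rps15 among the 3 most abundant small subunit rows, was at 922.50, 1088 and 1239.60 TPM and then at 1145.20, 1263 and 1403.96 TPM, with overlap (0.22, adjusted p = 0.0336). Rps15a, the risen small subunit member with the smallest change, went from 603.07, 652.1 and 701.99 TPM to 684.68, 759.5 and 790.54 TPM (0.20, adjusted p = 0.0113).

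Rps6, the phosphorylation target of S6 kinase by which mTORC1 activity is often read, was at 444.09, 481.4 and 544.45 TPM in controls and 551.04, 643.2 and 698.29 TPM in SAP. The highest control was just under the lowest SAP library, and the change was 0.37 (adjusted p = 0.00186). In the high-Xist libraries alone it was 0.31 (adjusted p = 0.0506). These are mRNA levels and say nothing of phosphorylation.

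Rps2, a protein at the mRNA entry channel, was the 1 member that fell, with the values as deposited; its change was 0.01 with quantile normalization and 0.21 with the acute-phase list left out of the total. It was at 53.10, 58.5 and 69.90 TPM in controls and 46.59, 49.43 and 59.83 TPM in SAP, with overlapping groups and a change of -0.21 ± 0.08 (SE; limma, adjusted p = 0.0490). When each library was left out in turn, Rps2 passed the threshold only without control 6, SAP 14 or SAP 15. Rps2 lies on chromosome 17 from 24718116 to 24721929 on the plus strand (GRCm38). Nearly all of the TPM of Rps2 and its copies was on another row, Rps2-ps10, at 1307.38, 1410 and 1610.24 TPM in controls and 1163.58, 1208 and 1284.59 TPM in SAP. There every SAP library was below every control (-0.22, adjusted p = 0.0116), and the change was 0.20 with the acute-phase list left out.

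**Figure D3:**
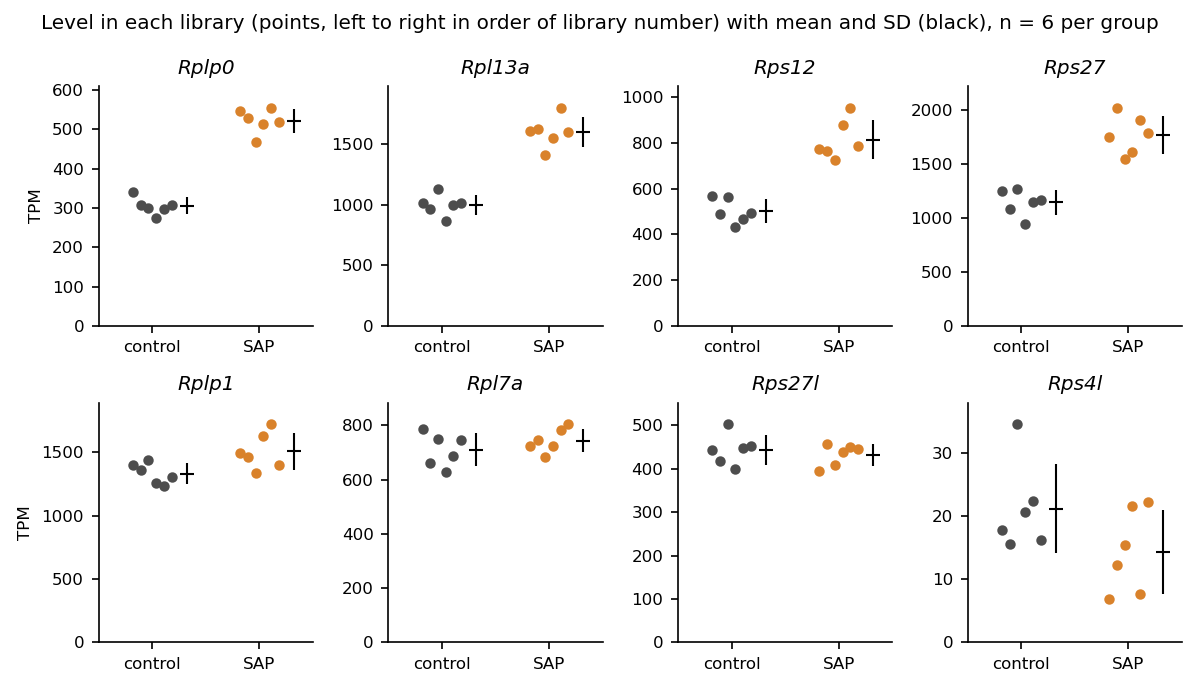
TPM (vertical axis, from 0) of 8 members in each of the 12 libraries, grey points for control and orange for SAP, with the mean and SD of each group of 6 in black. In the top row Rplp0, Rpl13a, Rps12 and Rps27 separate completely; in the bottom row Rplp1, Rpl7a, Rps27l and Rps4l overlap between the groups.

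Paralogues changed by another amount than their core member in 4 of 5 pairs. Rps27l, a close relative of Rps27 that is known as a p53 target, was at 400.47, 445.5 and 502.67 TPM in controls and 394.09, 442.3 and 457.16 TPM in SAP (-0.04, adjusted p = 0.685; 0.02 with TMM-like scaling, 0.24 with quantile normalization and 0.39 without the acute-phase list). The log2 ratio of Rps27 to Rps27l, formed like the others here on TPM + 1, was 1.24 to 1.49 in controls and 1.88 to 2.15 in SAP. It differed by 0.67 between the group means (exact two-sided permutation test, p = 0.00216, the smallest p this design allows; adjusted over 5 pairs 0.00541). Every SAP library was above every control. Rps4l, a transcribed copy of Rps4x, was at 15.59, 19.2 and 34.50 TPM in controls and 6.79, 13.79 and 22.24 TPM in SAP, and its change of -0.61 ± 0.28 (SE) did not pass (limma adjusted p = 0.0967). Rps4x itself rose by 0.38, from 352.69, 391.4 and 471.03 TPM to 482.98, 524.1 and 585.78 TPM without overlap, and the log2 ratio of Rps4x to Rps4l differed by 0.99 (exact permutation test, p = 0.0216, adjusted 0.0271). The ratio of Rpl7 to Rpl7l1 differed by 0.34 (exact permutation test, adjusted p = 0.00541) and that of Rpl36a to Rpl36al by 0.27 (adjusted p = 0.0108). For Rpl22 and Rpl22l1 the difference was -0.13 (exact permutation test, p = 0.351), with ranges of 1.25 to 1.95 in controls and 1.10 to 1.60 in SAP. The muscle and germline paralogues Rpl3l, Rpl10l and Rpl39l were under 1 TPM in every library.

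Among the 7 ribosomal protein genes that the naming pattern misses, 4 rose (57.1%) and 1 fell (14.3%), beside 19.5% and 25% of all genes. Rps3a1 (0.47) and Rpsa (0.43) had no overlap between the groups, and Rpl22l1 (0.41) and Rpl36al (0.19) also rose. Fau, a fusion of Rps30 with a ubiquitin-like protein, had a change of 0.05.

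Ribosomal protein genes are copied into the genome as processed pseudogenes more often than almost any other genes, and reads from a gene can be placed on such a copy. How shared reads were placed is not stated, so the rows were also read together. BLAST matched 1142 rows to 77 of the 82 members (at least 90% identity over at least 50% of the copy, or by name). For 21 tested members, 50% or less of the joint TPM was on the gene's own row. The share was 1.28% for Rpl12, 1.68% for Rps18, 3.88% for Rps2, 6.06% for Rpl5, 11.6% for Rpl27a and 13.0% for Rpl21. The rows that held the remainder moved as the gene did in several cases. Gm10275, the copy of Rpl12, went from 387.01, 472.2 and 543.73 TPM to 632.81, 731.2 and 788.30 TPM (0.61), Rps18-ps6 from 671.56, 743 and 845.69 TPM to 859.00, 942.2 and 1021.81 TPM (0.32), and Gm8730, a copy of Rplp0, from a median of 178.4 to 305 TPM (0.77). In each of these 3 the SAP libraries were above the controls. Other copies moved apart from their gene or from each other. Of the copies of Rpl35a, Rpl35a-ps4 fell (-1.32, limma adjusted p = 0.00652) and Rpl35a-ps6 had a change of 1.25 that did not pass (adjusted p = 0.142). Rpl37rt, matched to Rpl37, had a change of -0.80 that did not pass (adjusted p = 0.333), where Rpl37 rose by 0.21.

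Read on their own rows, the 76 protein-coding members tested spread over a ratio of 188 between the highest median TPM (Rps27, 1411) and the lowest (Rpl12, 7.505), with an SD of 1.35 on the log2 scale. With copies added, the ratio was 6.885 (Rps29 at 1628 and Rpl39 at 236.5) and the SD 0.66. The joint rows gave 37 large and 26 small subunit members risen and Rps2 fallen, beside 33, 27 and Rps2 from the gene rows (19.4% of all rows rose and 25.1% fell in the joint table), and 57 of the 60 members risen on the gene row were risen in both. Rpl3 (0.28), Rpl5 (0.22), Rpl10 (0.30), Rpl15 (0.24), Rpl30 (0.26) and Rpl31 (0.23) passed only with copies, and Rpl29 (0.11), Rpl37 (0.05) and Rps7 (0.51, adjusted p = 0.0642) only without. One copy of Rps7, Gm42845, ranged from 0 to 450.26 TPM among controls alone. This reading was chosen after the values were seen.

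**Figure D4:**
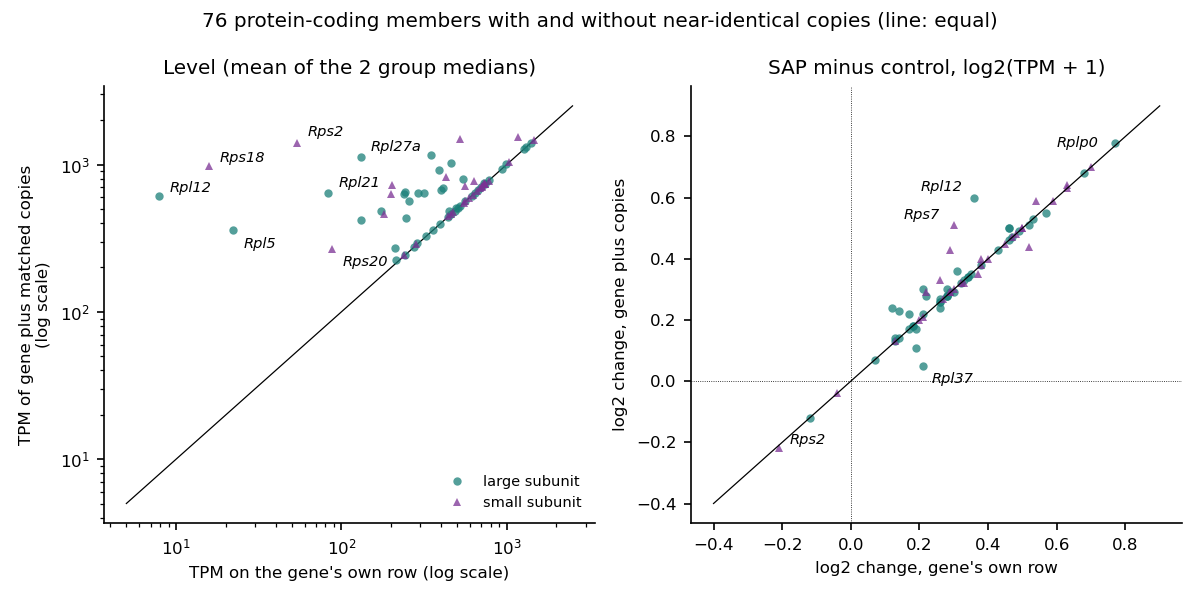
Left, level of each of the 76 protein-coding members tested (mean of the 2 group medians, TPM, both axes logarithmic) on its own row against gene plus matched copies; right, the log2 change on the same 2 bases; the diagonal marks equality. Rpl12, Rps18, Rpl5 and Rps2 sit far above the diagonal on the left, while most members lie close to it on the right (Pearson r = 0.96 over 76 genes, a description of values that share the same reads).

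Start regions were looked at because the members moved together. The first 4 members below rose, with Rps6 shown as a classic TOP mRNA. Rpl15 and Rpl35a did not pass. Rplp0, with the largest rise, and Rps2, the member that fell, are shown since they held no run in these windows. Within 50 bases of the start on either side, Rps2 did hold a run of 10 C or T, while Rplp0 did not hold any run of at least 8. Sequences are from RefSeq on GRCm38.p6, 5′ to 3′ on the gene's strand, from 30 bases before the annotated start through the first 20 of the transcript, and capitals mark runs of at least 8 C or T. The windows are chr7:45128726-45128775 (minus strand), chr10:23787190-23787239 (minus), chr3:90213629-90213678 (minus), chr4:86857348-86857397 (minus), chr14:18270967-18271016 (minus), chr16:33056452-33056501 (plus), chr5:115559437-115559486 (plus) and chr17:24720033-24720082 (plus).
Rpl13a: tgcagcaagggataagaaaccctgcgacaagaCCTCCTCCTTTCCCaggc
Rps12: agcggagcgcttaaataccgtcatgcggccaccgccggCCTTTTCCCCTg
Rps27: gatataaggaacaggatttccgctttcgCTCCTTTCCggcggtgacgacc
Rps6: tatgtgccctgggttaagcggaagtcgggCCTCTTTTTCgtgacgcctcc
Rpl15: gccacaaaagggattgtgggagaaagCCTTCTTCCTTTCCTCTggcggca
Rpl35a: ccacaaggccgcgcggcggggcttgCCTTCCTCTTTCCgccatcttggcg
Rplp0: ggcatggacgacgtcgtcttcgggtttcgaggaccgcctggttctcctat
Rps2: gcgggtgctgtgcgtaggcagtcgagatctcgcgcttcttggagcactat

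The RefSeq table held 72 start regions for 60 of the 82 members, out of 32851 regions in all, each of 250 bases before and 50 after the start. A run of at least 8 C or T on the sense strand within 50 bases of the start was present in 58 of the 72 (80.6%), in 32.4% of the regions of tested genes and in 35.7% of all. CTTTC in the same window was in 48.6% of members' regions, 10.3% of those of tested genes and 12.8% of all. CGGAAG, on either strand over the 300 bases, was in 59.7% of members' regions, 31.1% of those of tested genes and 16.9% of all. Each on both strands, AAGATGG was in 15.3% of members' regions, 7.4% of those of tested genes and 6.3% of all. CACGTG was in 11.1%, 10.2% and 7.2% in the same order, so that members were close to tested genes. TATAAA was in 9.7%, 7.9% and 13.6%, between the shares of tested genes and of all. The C/T run was in 43 of the 54 regions of risen members and 11 of the 12 regions of members not past the threshold. A match of letters is not a binding site.

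Among the 14 elongation and ribosome-associated factors, 7 rose (50%), 3 fell (21.4%) and 4 did not pass (median 0.22). Over all genes, 19.5% rose and 25% fell. Eef1a1, the carrier of aminoacyl-tRNA, rose from a median of 2987 to 3923 TPM (0.34), and its exchange factor subunits Eef1b2 (0.32), Eef1d (0.34) and Eef1g (0.33) rose with it. The small-subunit scaffold Rack1 (0.36), Tpt1 (0.40) and the histone chaperone Nap1l1 (0.86) rose. The translocase Eef2 fell from 576.20, 648.7 and 755.43 TPM to 467.44, 474.7 and 528.91 TPM (-0.43, limma adjusted p = 1.86e-04) with no overlap. Naca (-0.29), which guards nascent chains, and Eif5a (-0.14, limma adjusted p = 0.0476) fell too. Without the acute-phase list the changes were -0.01 for Eef2, 0.13 for Naca and 0.28 for Eif5a, which then rose. In that setting 11 of the 14 rose and 0 fell, where 55.6% of all genes rose and 10.2% fell.

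The machinery that builds ribosomes was mixed. Of 38 assembly and rRNA processing genes 12 rose (31.6%), 4 fell (10.5%) and 22 did not pass (median 0.15), beside 19.5% and 25% of all genes. Rrs1 (0.66), which recruits the 5S particle, Nop16 (0.37) and Nolc1 (0.54) rose. The pseudouridylation proteins Nhp2 (-0.57) and Dkc1 (-0.51) and the methyltransferase Fbl (-0.43) fell. Without the acute-phase list 30 of the 38 rose and 0 fell, where 55.6% of all genes rose and 10.2% fell. The changes of Nhp2, Dkc1 and Fbl were then -0.16, -0.16 and -0.01. In the high-Xist libraries alone 3 of the 38 rose and 3 fell, where 18% and 16.1% of all genes did. Of 13 genes of RNA polymerase I and its factors, 3 rose (23.1%), 0 fell and 10 did not pass. The share risen was near the 19.5% of all genes, while 25% of all genes fell. Those 3 were Taf1c (0.67), Ubtf (0.37) and Znrd1 (0.26). Taf1c was at 0.45 to 0.93 TPM in controls and 1.16 to 2.52 TPM in SAP. It passed the low-value filter through its SAP libraries alone, which favoured a rise. Of 18 regulators around mTORC1 and Myc, 3 rose (16.7%) and 5 fell (27.8%), shares near the 19.5% and 25% of all genes. S6 kinase 1 mRNA (Rps6kb1) rose by 0.47, the translation repressor Eif4ebp1 by 0.38 and Myc, at a median of 0.81 TPM in controls and 1.325 in SAP, by 0.40, and the mTORC1 inhibitor Deptor (-0.64) and the scaffold Rptor (-0.47) fell; without the acute-phase list 10 rose and 0 fell, where 55.6% and 10.2% of all genes did, with Deptor at -0.26 and Rptor at -0.08. Among 11 snoRNA host RNAs, which carry TOP tracts in several cases, Snhg18 (0.91) and Gas5 (0.34) rose, Snhg6 (-0.35) fell and 8 did not pass. The shares were 18.2% risen and 9.09% fallen, beside 19.5% and 25% of all genes. Snhg18 was low, at 0.44 to 1.43 TPM in controls and 2.01 to 3.37 TPM in SAP. The fall of Snhg6 was absent without the acute-phase list (-0.00).

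Mitochondrial ribosomal proteins, coded in the nucleus for a separate ribosome, were lower relative to other mRNAs. Of 78 tested, 5 rose (6.41%), 45 fell (57.7%) and 28 did not pass, with a median of -0.29. Over all genes, 19.5% rose and 25% fell. Their summed share of TPM was 0.40 to 0.44% in controls and 0.35 to 0.41% in SAP. With the acute-phase list left out of the total, 28 rose (35.9%) and 8 fell (10.3%), beside 55.6% and 10.2% of all genes, and the median was 0.12, beside 0.33 over all genes. Relative to the median of all genes, the mitochondrial list stood at -0.26 as deposited, -0.13 with quantile normalization and -0.21 after that rescaling.

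**Figure D5:**
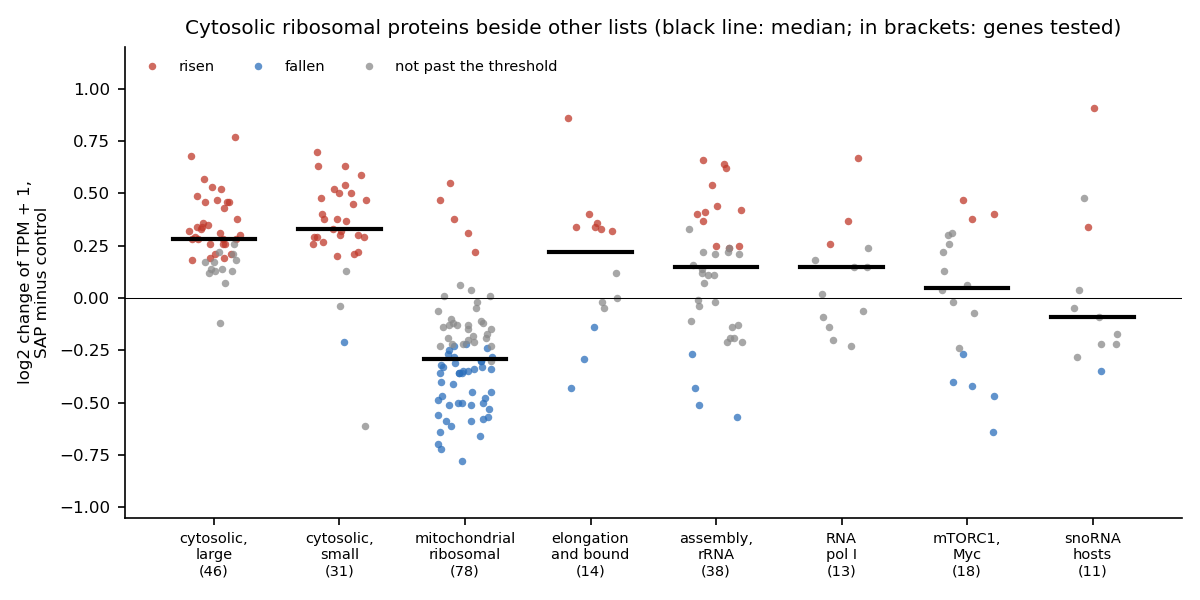
Log2 change (vertical axis, SAP minus control) of each tested gene in 8 lists, with the number tested in brackets and the list's median as a black line; red is risen, blue fallen and grey not past the threshold. The medians of the cytosolic large (0.28) and small subunit (0.33) are positive, and that of the mitochondrial ribosomal proteins is -0.29 (0.12 with the acute-phase list left out of the total).

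Whole liver holds several cell types, and fewer cells of a type cannot be told apart from less RNA per cell in such samples. Hepatocyte markers were abundant in every library, although the summed TPM of 10 hepatocyte markers was 129200 to 142500 in controls and 66050 to 86790 in SAP, with 6 of the 10 fallen and 1 risen. All marker sums are given as deposited. They share the total with the acute-phase list, which took 3.55 to 4.13% of TPM in controls and 22.8 to 37.2% in SAP. Markers of B and T lymphocytes, cells rich in ribosomal protein mRNA, were low: 12 of them summed to 3.16 to 5.44 TPM in controls and 2.45 to 6.81 TPM in SAP. The 1 that passed the filter, Gzma, rose (0.275 to 1.475 TPM in median, 0.87, limma adjusted p = 0.00596). It passed the filter mainly through its SAP libraries (1.04 to 3.52 TPM), which favoured a rise. Of the other lists, 10 neutrophil markers summed to 4.73 to 19.55 and 36.54 to 111.4 TPM, with 3 of the 4 tested risen. For 8 monocyte and macrophage markers the sums were 58.2 to 87.24 and 74.73 to 119.3 TPM, and of 6 tested 3 rose and 1 fell. The risen genes of these 2 lists include Retnlg (neutrophil) and Itgam (monocyte), at no more than 0.9 and 0.52 TPM in controls. Both passed the filter through SAP libraries alone, so the counts favour rises. The 7 Kupffer cell markers summed to 114.8 to 184.2 and 105 to 244.3 TPM, but moved apart. Marco rose (4.50), Clec4f (-0.69), Vsig4 (-0.72) and Timd4 (-0.59) fell, and 3 did not pass. In the high-Xist libraries alone 2 of these 7 rose and 0 fell. Of 7 sinusoidal endothelium markers, which summed to 99.1 to 136.6 and 110.1 to 159.5 TPM, 3 rose and 0 fell, and of 7 stellate cell markers, at 108.3 to 133.1 and 112 to 144.6 TPM, 4 rose and 1 fell. For 6 cholangiocyte markers the sums were 14.53 to 29.69 and 15.92 to 41.05 TPM. For 7 erythroid markers the sums were 606.8 to 5292 and 341.4 to 716.3 TPM, and all 5 tested fell. Cell division markers (8 genes) summed to 2.18 to 4.73 TPM in controls and 1.63 to 3.92 TPM in SAP, and pancreatic acinar markers (9 genes) to 0.6 to 12.54 and 0.56 to 1.36 TPM. The part of any of these cell types in the change of the ribosomal protein mRNAs was not tested.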

How the data were processed

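The authors deposited 1 table of 12 library columns, all used (0 left out), whose unit was taken to be TPM. No header or label names the unit, which follows from column sums of 993412 to 995793, so depth is unknown and no counting interval is given. The submitters' processing notes name edgeR among the authors' tools, without version or role. Aligner, build and handling of shared reads: not given in the sources used here.

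Log2(TPM + 1) of the 11344 genes reaching 1 TPM in 6 or more libraries was fitted with limma 3.58.1 (R 4.3.3, trend), group as the only term, two-sided p-values adjusted with Benjamini-Hochberg over all genes at 0.05. Of rows sharing a symbol, the one with the highest median carries it. Members come from the naming pattern; members and lists were chosen with earlier results of these data known. The lowest, median and highest TPM per group are given for the 5 highest and 5 lowest log2 changes and the 3 most abundant members of each subunit. In both subunits the 5 lowest include changes above 0. Such values are also given for Rplp0, Rplp1, Rplp2, Rps6, Rpl3, Rpl5 and Rpl11, and for paralogues with their core member. From each pathway list but the acute-phase genes the 3 smallest adjusted p are named, most with the log2 change alone. Other genes are named as examples of their role. Ratios of paralogues were compared with exact permutation tests (scipy 1.17.1). Copies were matched with BLAST 2.17.0 on GENCODE M21 transcripts, 72 of them by name alone. Alternatives were quantile normalization, factors like those of TMM, a total without the acute-phase list, a pseudocount of 0.1, limma without trend or with a robust step, no filter, a minimum mean of 5 TPM, the highest mean for shared symbols, the Xist split as a term, high-Xist libraries alone, leaving out SAP 14 with control 5, each library left out in turn and, added later, gene plus copies. The fit was tested on simulated data. Values of some genes are not reported here.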

Additional observations from a re-analysis of the deposited data

Results flagged for a closer look

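Among 93 groups of 6 libraries checked for 50 named genes, 2 had a library set apart from the other 5 by a gap over Dixon's critical value for the share of the group's range, where about 1 in 20 groups would be so by chance. Both were in control 5. Rps2 was at 69.9 TPM there, with the next control at 58.88 and the lowest at 53.1 TPM. Rps4l was at 34.5 TPM there, with the next control at 22.31 and the lowest at 15.59 TPM. Control 5 is the low-Xist control and the control with the highest summed share of the members (3.83%), and the part of the Xist split in these values was not tested. Without control 5 the members risen numbered 64 and Rps2 did not pass the threshold.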

How the results depend on the processing

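No paired analysis was possible because control 3 to 8 and SAP 10 to 15 share no replicate numbers. TPM keeps no depth, so the counting error of low rows such as Rpl12 and Rps18 is unknown, and reads shared with copies limit single rows. Of 47 named genes, 23 kept direction and side of the threshold under each of the 25 alternatives in which it was tested.

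The large subunit members risen were 20 with the Xist split as a term and 19 in the high-Xist libraries alone (2 SAP libraries), where the small subunit members risen were 17; leaving out 1 library gave 30 to 37 and 25 to 27. Rps2 was no longer fallen (0 small subunit members) with quantile normalization, TMM-like scaling, the total without the acute-phase list, no filter and no trend, and 2 fell with the Xist term. Leave-one-out gave 0 to 2, and 0 for the large subunit. In those fits Rps2 passed only without control 6, SAP 14 or SAP 15. The member fallen without SAP 13, and the second without SAP 15, was Rps4l. Medians were 0.55 (large) and 0.59 (small) with quantile normalization and 0.70 and 0.74 without the acute-phase list, and leave-one-out gave 0.25 to 0.32 and 0.29 to 0.37. The difference in summed share was 2.48 percentage points without that list and 1.19 with copies, and 0.80 to 0.97 on leaving out 1 library. The copies were added after the data were seen. The cause of these shifts was not tested.

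Among these 47, directions turned for Rps2 (0.01 with quantile normalization, 0.21 without the acute-phase list), Rpl35a (0.17 and 0.30) and Rps27l (0.24 and 0.39, 0.02 with TMM-like scaling and 0.00 without control 5, in a leave-one-out range of -0.06 to 0.00). Outside them, Naca turned from -0.29 to 0.10 and 0.13 with quantile normalization and without the acute-phase list. Eif5a turned from -0.14 to 0.12 and 0.28 under the same 2 settings, and Rps2-ps10 from -0.22 to 0.20 without the acute-phase list.

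For the other lists, the total without the acute-phase list gave 11 elongation factors risen and 0 fallen, 7 other ribosomal proteins risen and 0 fallen, 30 assembly genes risen and 0 fallen, 9 polymerase I genes risen, 10 mTORC1 and Myc regulators risen and 0 fallen, 0 snoRNA hosts fallen, and 28 mitochondrial ribosomal proteins risen and 8 fallen. Under that total 55.6% of all genes rose and 10.2% fell. Quantile normalization gave 1 elongation factor fallen, 0 other ribosomal proteins fallen, 6 mTORC1 and Myc regulators risen and 10 mitochondrial ribosomal proteins risen. Of all genes, 26.2% rose and 22.7% fell there. TMM-like scaling gave 0 other ribosomal proteins fallen and 6 mTORC1 and Myc regulators risen, where 24% of all genes rose and 24.1% fell. With the Xist term there were 2 other ribosomal proteins risen and 0 fallen, 1 polymerase I gene fallen and 1 mTORC1 or Myc regulator fallen. That fit had 20.5% of all genes risen and 19.4% fallen. In the high-Xist libraries there were 2 other ribosomal proteins risen and 0 fallen, 3 of 38 assembly genes risen, 1 mTORC1 or Myc regulator fallen, 0 snoRNA hosts fallen and 3 mitochondrial ribosomal proteins risen. There 18% of all genes rose and 16.1% fell, so the assembly genes did not exceed the share of all genes risen. Without SAP 14 and control 5 there were 0 other ribosomal proteins fallen, 5 mTORC1 and Myc regulators risen and 0 snoRNA hosts fallen. All genes were then 20.2% risen and 22.8% fallen. No filter gave 3 mTORC1 and Myc regulators fallen, no trend 0 other ribosomal proteins fallen, and a mean of at least 5 TPM 1 snoRNA host risen and 2 fallen. Of all genes, 2226 of 25185 rose and 2771 fell with no filter. With no trend 2217 of 11344 rose and 2816 fell, and with the mean of 5 TPM 1581 of 7446 rose and 2351 fell. Leaving out 1 library gave 7 elongation factors risen and 2 to 3 fallen, 3 to 4 other ribosomal proteins risen and 0 to 1 fallen, 9 to 13 assembly genes risen and 3 to 5 fallen, 2 to 3 polymerase I genes risen and 0 to 1 fallen, 3 to 5 mTORC1 and Myc regulators risen and 3 to 5 fallen, 2 to 3 snoRNA hosts risen and 1 to 2 fallen, and 4 to 5 mitochondrial ribosomal proteins risen and 40 to 52 fallen. Among all 11344 genes, 1955 to 2453 rose and 2536 to 3063 fell in these fits.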
